A study of Capra hircus with 8 samples.

Results

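Keratin-associated proteins (KAPs) are small proteins of the hair shaft. They fill the space between the keratin filaments of the cortex and cuticle and are bound to those filaments and to each other, largely through disulfide bonds. Their genes are short, lie side by side in clusters, and fall into high sulfur, ultra-high sulfur and high glycine-tyrosine families. In the growing follicle KAP genes are switched on late, in cells above the dividing matrix that are already making hair keratins, so their transcripts in skin come mainly from follicles that are building a shaft.

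The KAP clusters were taken here as the rows gene35 to gene50 and gene19558 to gene19601 of the first count table. A row was present for 54 of these 60 gene numbers, among 18815 genes in that table. The cluster on chromosome 1 held 15 members and the cluster on chromosome 19 held 39. Only 4 members carried a gene name, KRTAP11-1, KAP8 and KRTAP15-1 on chromosome 1 and KRTAP3-1 on chromosome 19. The other 50 had LOC symbols that no source used here gives a name, so the statement that they are KAP genes rests on their place among the named ones. Each of the 54 was matched by symbol to the NCBI RefSeq gene table of goat assembly ARS1.2, which lists it as protein coding, and all lie on chromosomes 1 and 19 there.

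Skin RNA was sequenced from cashmere goats, kept for a fine undercoat, and from milk goats. Months 3, 6, 9 and 12 were sampled, and the 8 libraries hold 1 for each combination of breed and month. The groups differ by breed and month alone, with no treatment and no altered gene named in the labels. The labels give the month as an age while the design text speaks only of months, and how many animals went into a library is not stated, so p-values below measure the spread between these libraries only. The protocol refers to embryos, while markers of skin were present in every library. The keratins KRT5 and KRT14 with LGR5 and SOX9, of the basal layer and outer root sheath, summed to at least 12768 CPM (read counts scaled to a common library size) in cashmere goats and 9780 CPM in milk goats. Library totals were 7480053 to 8718429 reads in cashmere goats and 11333734 to 13899750 reads in milk goats. The month 9 milk goat library stood apart in its scaling, with a TMM factor of 0.783 against 0.990 to 1.13 in the other 7.

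The members were divided by their position alone, into runs of consecutive gene numbers. On chromosome 1 these were gene35 to gene41 (7 members, with KRTAP11-1 and KAP8) and gene43 to gene50 (8 members, with KRTAP15-1). On chromosome 19 they were gene19558 to gene19561 (4 members, with KRTAP3-1), gene19563 to gene19566 (4 members), gene19569 to gene19582 (14 members) and gene19585 to gene19601 (17 members). The last 5 members of the last run, gene19597 to gene19601, had spans over 3 kb in the RefSeq table and lie next to the hair keratin genes KRT38, KRT32, KRT35 and KRT36. Spans this long are unusual for KAP genes, and the annotation does not say what these 5 genes are. They held 25.4% to 35.9% of member reads in cashmere goats and 25.8% to 37.5% in milk goats, and the totals over members include them. Their share of reads at month 3 was 10.2-fold higher in the cashmere goat library than in the milk goat library, and that of gene19585 to gene19596 was 3.68-fold higher. Per hair shaft keratin read these ratios were 2.98 and 1.08. Another 4 members had spans over 3 kb, and 5 members overlapped another gene, so their reads cannot be assigned with certainty. KAP copies can also be nearly identical and share reads.

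Levels were compared between genes as FPKM, a unit scaled to gene length and to mapped reads. LOC102170264 had the highest mean level, with 1243 ± 468 FPKM in cashmere goats and 437 ± 460 FPKM in milk goats (SD over 4 months, n = 4 each). Its neighbour LOC102170546 followed with 927 ± 434 FPKM in cashmere goats and 327 ± 371 FPKM in milk goats. The spreads over months overlapped, but LOC102170264 had the higher FPKM of this pair in every library. Their order was not tested. KRTAP3-1, a high sulfur KAP in the same run of 4, had 668 ± 354 FPKM in cashmere goats and 194 ± 244 FPKM in milk goats, and KRTAP11-1, another high sulfur KAP, had 655 ± 365 FPKM in cashmere goats and 131 ± 135 FPKM in milk goats. KAP8, of the high glycine-tyrosine kind, had 344 ± 378 FPKM in cashmere goats and 35.1 ± 44.1 FPKM in milk goats. A few members carried most of the signal. The 8 members with the highest mean FPKM held 53.2% of the summed FPKM of all members, and the 4 lowest had mean levels of 0.464 to 0.590 FPKM.

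Those 4 lowest members, LOC102180888, LOC102181160, LOC102181719 and LOC106503204, did not pass the filter on low counts. The other 50 were tested between breeds, among 14085 genes. Because the filter asks only for reads in one breed, a member silent in one breed could pass through the other. Bulk skin also cannot tell fewer follicle cells from less RNA per cell, which holds for every difference below.

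Of all reads, the members together took 0.935%, 1.83%, 3.23% and 1.83% at months 3, 6, 9 and 12 of cashmere goats, against 0.0964%, 0.908%, 1.50% and 0.0830% in milk goats. Month 9 was highest in both breeds. Months 3 and 12 were both low in milk goats, whereas in cashmere goats month 12 was level with month 6. The share was higher in cashmere goats in each month. It was 9.70-fold higher at month 3 and 22.0-fold at month 12, the low months of milk goats. The factor was 2.02 at month 6 and 2.16 at month 9. With TMM scaling it was 2 at month 6 and 1.69 at month 9, so the order of these months depends on the scaling. These are ratios of 1 library to 1 library and carry no test. Exact binomial 95% intervals, which cover counting error only, were narrow, at 3.21% to 3.24% for cashmere goats at month 9 and 0.0814% to 0.0847% for milk goats at month 12. From the lowest to the highest month the TMM-scaled sum changed 3.89-fold among cashmere goat libraries, against 22.8-fold among milk goat libraries.

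KRTAP11-1 stood at 444, 674, 1653 and 929 CPM in cashmere goats at months 3, 6, 9 and 12, against 39.6, 265, 582 and 28.8 CPM in milk goats. KAP8 stood at 33.4, 65.0, 791 and 406 CPM in cashmere goats, against 7.49, 19.3, 129 and 13.5 CPM in milk goats. Each month was higher in cashmere goats for both genes. Yet the cashmere goat values at month 3, and that of KAP8 at month 6, fell inside the range of the milk goat values. The breeds thus overlapped when months were ignored. KRTAP15-1, a high sulfur KAP, stood at 8.47, 59.4, 173 and 63.1 CPM in cashmere goats, against 2.20, 20.7, 58.9 and 1.15 CPM in milk goats. KRTAP3-1 stood at 286, 599, 1148 and 619 CPM in cashmere goats, against 20.9, 203, 733 and 25.7 CPM in milk goats. All 4 named KAPs were highest at month 9 in both breeds, and KAP8 and KRTAP15-1 changed most between months in cashmere goats, by 23.7-fold and 20.5-fold from lowest to highest.

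Between breeds, the fitted difference of KAP8 was 7.02-fold, higher in cashmere goats, or 2.81 ± 0.50 on the log2 scale (SE). Its adjusted p was 0.0356 in the edgeR quasi-likelihood test with month in the model and Benjamini-Hochberg adjustment over all 14085 genes. KRTAP11-1 had a log2 fold change of 2.78 ± 0.65, of nearly the same size, at adjusted p = 0.0553 in edgeR, which missed the threshold of 0.05. KRTAP3-1 was at 2.63 ± 0.69 with adjusted p = 0.0717 in edgeR, and KRTAP15-1 at 2.38 ± 0.62 with adjusted p = 0.0706 in edgeR.

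**Figure D1:**
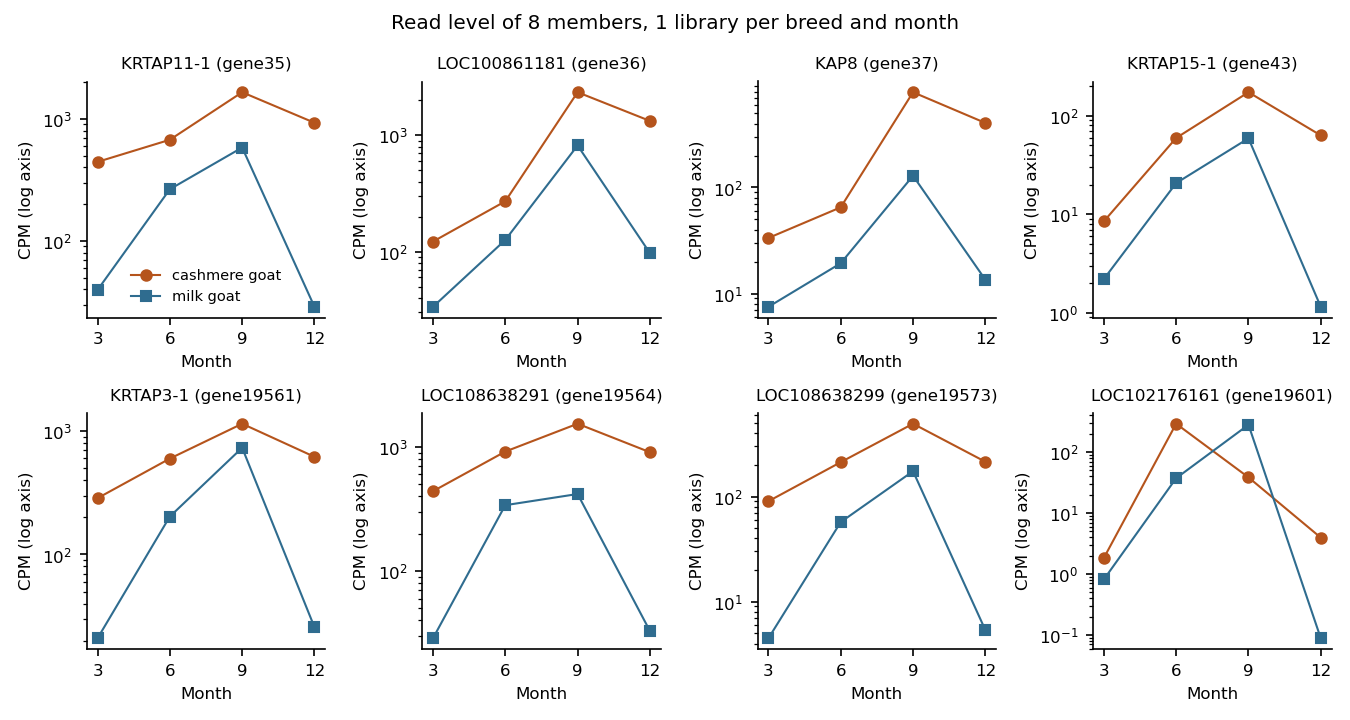
Read level in CPM (log axis) of 8 members by month, with circles for the cashmere goat library and squares for the milk goat library of each month. In 7 panels cashmere goats are higher at every month and both breeds are highest at month 9, while LOC102176161 is highest at month 6 in cashmere goats, with 292 CPM, and at month 9 in milk goats, with 281 CPM.

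Of the 50 tested members 8 rose in cashmere goats and 0 fell. Among all genes tested, 1.47% were called higher and 3.32% lower in cashmere goats, and an unadjusted p under 0.05 in the higher direction was reached by 44 members against 12.9% of all genes. The members' median log2 fold change was 2.24, beside 0.03 over all genes, and 49 of 50 were positive. The called members had adjusted p of 0.0356 to 0.0478, close under the threshold, and several others lay just above it, such as LOC108638297 at 0.0504. The count was therefore sensitive to the fit. The shares of all genes set beside the counts below are calls in either direction, which were 4.79% in the fit above. It was 35 with the DESeq2 Wald test, which called 12.2% of all genes, and 26 with library totals in place of TMM, beside 4.39% of all genes. It was 23 of 54 with no filter on low counts, beside 4.72% of all genes, and 0 without month in the model, beside 2.46%. Without any 1 of the 6 libraries of months 3, 6 and 9 it was 0, and those fits called 0% to 0.0284% of all genes, so the calls over all genes were lost with those of the members. It was 14 without the month 12 cashmere goat library, beside 6.05% of all genes, and 12 without the month 12 milk goat library, beside 5.28%. The median log2 fold change stayed between 1.50 and 2.92 in each cluster over these 8 fits. With month in the model, a month that keeps only 1 library cannot inform the breed difference. Leaving out either library of a month is therefore nearly the same check. For KAP8 the log2 fold change was 3.02 without the month 3 cashmere goat library and 3.04 without the month 3 milk goat library.

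In the run gene35 to gene41, 4 of 7 members rose. LOC100861181, next to KRTAP11-1, stood at 122, 271, 2351 and 1332 CPM in cashmere goats, against 33.5, 126, 819 and 97.1 CPM in milk goats, and its log2 fold change was 2.03 ± 0.43 (adjusted p = 0.0472, edgeR). LOC100860930 stood at 48.0, 157, 710 and 452 CPM in cashmere goats, against 9.85, 70.7, 138 and 24.4 CPM in milk goats, and its log2 fold change was 2.48 ± 0.46 (adjusted p = 0.0370, edgeR). For both, the cashmere goat library was the higher one in each month and month 9 was highest in each breed. LOC100861168 departed from that order, with 25.2, 37.1, 76.5 and 159 CPM in cashmere goats, against 1.47, 22.3, 22.9 and 16.7 CPM in milk goats. Its highest cashmere goat value came at month 12, its lowest lay above every milk goat value, and its log2 fold change was 2.32 ± 0.50 (adjusted p = 0.0478, edgeR). LOC108636735, among the 4 most abundant genes of the chromosome 1 cluster, stood at 50.7, 164, 740 and 505 CPM in cashmere goats, against 17.1, 103, 267 and 24.2 CPM in milk goats, with the lowest fold change of that cluster (log2 1.93 ± 0.57, adjusted p = 0.0910, edgeR).

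In the run gene43 to gene50, 0 of the 5 tested members passed in edgeR, although all 5 had an unadjusted p under 0.05. LOC102181431 stood at 56.1, 61.9, 230 and 121 CPM in cashmere goats, against 1.47, 24.8, 49.9 and 2.11 CPM in milk goats. The groups did not overlap, and its log2 fold change of 3.36 ± 0.77 was the highest of all members (adjusted p = 0.0539, edgeR). LOC100861175, the most abundant gene of the run, stood at 102, 336, 635 and 232 CPM in cashmere goats, against 10.4, 150, 307 and 6.08 CPM in milk goats, at log2 2.55 ± 0.71 (adjusted p = 0.0820, edgeR).

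On chromosome 19, 4 of 38 tested members rose, 1 in gene19563 to gene19566, 2 in gene19569 to gene19582 and 1 in gene19585 to gene19601. LOC108638291, which overlaps another gene in the RefSeq table, stood at 439, 916, 1535 and 905 CPM in cashmere goats, against 28.7, 339, 417 and 32.9 CPM in milk goats. Its groups did not overlap, and its log2 fold change was 2.99 ± 0.60 (adjusted p = 0.0429, edgeR). LOC108638299 stood at 90.1, 212, 492 and 214 CPM in cashmere goats, against 4.48, 57.1, 174 and 5.37 CPM in milk goats. It had the highest fold change of the chromosome 19 cluster, at log2 3.15 ± 0.67 (adjusted p = 0.0472, edgeR). LOC106503217 stood at 32.5, 88.5, 128 and 42.3 CPM in cashmere goats, against 1.87, 29.6, 61.2 and 3.00 CPM in milk goats, at log2 2.43 ± 0.52 (adjusted p = 0.0472, edgeR). LOC108638302, with the lowest level of the called members, stood at 2.18, 11.0, 15.1 and 4.08 CPM in cashmere goats, against 0.163, 1.77, 6.99 and 0.529 CPM in milk goats, at log2 2.24 ± 0.41 (adjusted p = 0.0356, edgeR).

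**Figure D2:**
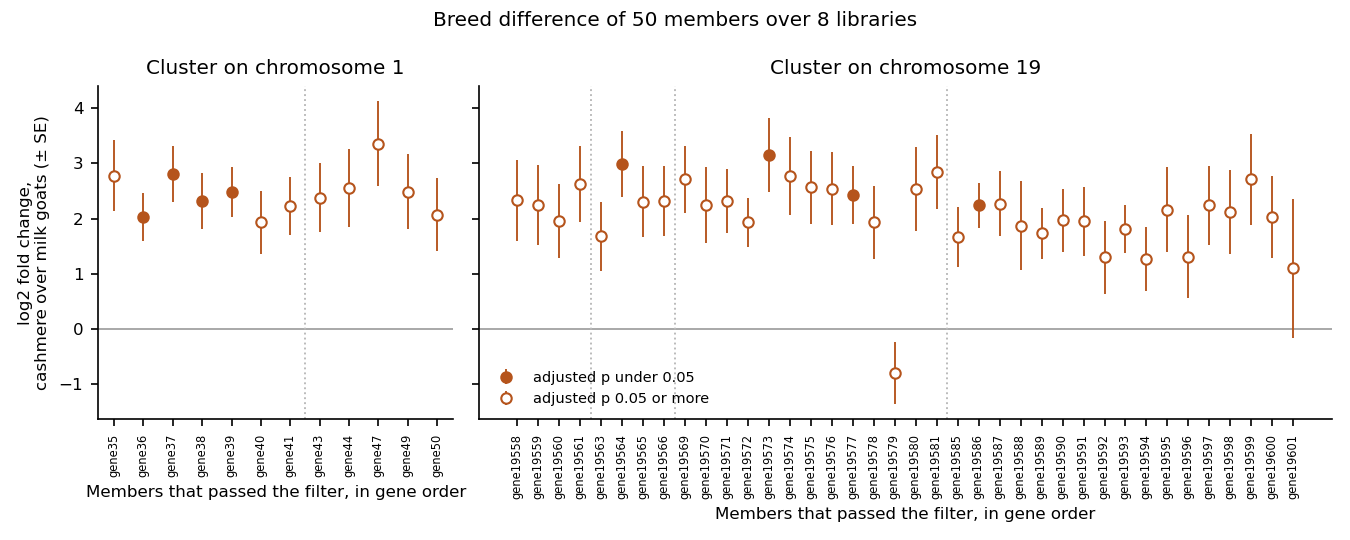
Log2 fold change of cashmere over milk goats with its SE for the 50 members that passed the filter, in gene order, with filled circles for adjusted p under 0.05 and dotted lines between runs. Values lie between 1.10 and 3.36 except for LOC108638295 (gene19579) at -0.80.

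The 4 most abundant members of chromosome 19 did not pass the test. LOC102170264 stood at 749, 1461, 2145 and 1471 CPM in cashmere goats, against 68.0, 807, 1572 and 75.7 CPM in milk goats, at log2 2.25 ± 0.72 (adjusted p = 0.108, edgeR). LOC102170546 stood at 539, 1056, 1820 and 1017 CPM in cashmere goats, against 48.7, 533, 1326 and 44.0 CPM in milk goats, at log2 2.33 ± 0.74 (adjusted p = 0.105, edgeR). Both were well apart at months 3 and 12 and less so at months 6 and 9. LOC108638300 stood at 313, 841, 1875 and 1026 CPM in cashmere goats, against 42.4, 304, 1629 and 44.6 CPM in milk goats, at log2 2.24 ± 0.69 (adjusted p = 0.0974, edgeR). LOC100861381, of the long-span group beside the keratin genes, stood at 1083, 1776, 2411 and 1669 CPM in cashmere goats, against 122, 1213, 1988 and 85.7 CPM in milk goats, at log2 2.03 ± 0.74 (adjusted p = 0.140, edgeR).

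The cashmere goat library was the higher one in all 4 months for 45 of 50 members, beside 19.6% of all genes tested. Every cashmere goat library lay above every milk goat library for 3 members, beside 6.46% of all genes, which is a like share. The members thus separated by breed within months rather than across them.

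Month by month, with at least 50 reads in the pair of libraries and a 2-fold limit, all 44 members compared at month 3 were higher in cashmere goats (3.07% of all genes higher, 2.85% lower). The median log2 ratio of these members was 3.38. At month 6, 32 of 49 members were higher and 1 lower (2.04% of all genes higher, 2.41% lower), with a median of 1.17. At month 9, 22 of 50 were higher and 2 lower (4.06% of all genes higher, 6.09% lower), with a median of 0.81. At month 12, 44 of 45 were higher and 0 lower (8.69% of all genes higher, 11.0% lower), with a median of 4.45. The separation was thus wide when the milk goat level was low, at months 3 and 12, and narrow at months 6 and 9.

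The clusters parted at month 9. All 12 members compared on chromosome 1 were at least 2-fold higher in cashmere goats there, with a median log2 ratio of 1.51 and a lowest of 1.05. On chromosome 19, 10 of 38 were, with a median of 0.62. The run gene19563 to gene19566 was the exception there, with 3 of 4 higher and a median of 1.33. This contrast between clusters rests on 1 pair of libraries and has no test. Library scaling shifts the log2 ratios of both clusters alike, but the counts past 2-fold depend on it. The summed log2 ratio at month 9 was 1.59 on chromosome 1 and 0.56 on chromosome 19 with TMM scaling. By share of reads it was 1.95 on chromosome 1 and 0.91 on chromosome 19.

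**Figure D3:**
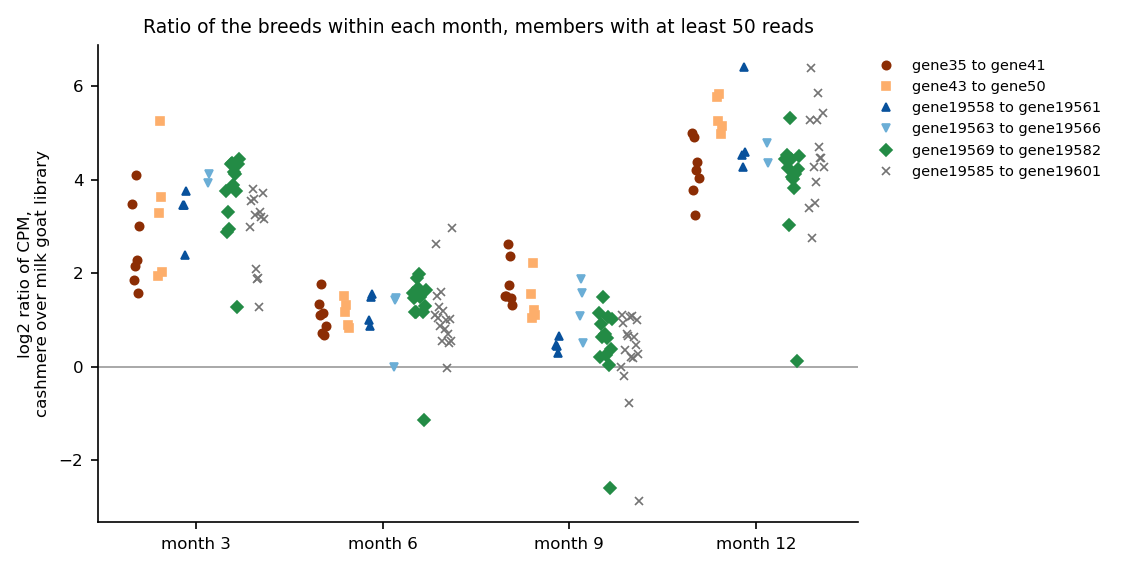
Log2 ratio of CPM, cashmere over milk goat library, of each member with at least 50 reads in the pair, by month and run. Ratios are high at months 3 and 12 and low at months 6 and 9, and at month 9 the members of both chromosome 1 runs lie between 1.05 and 2.62 while most chromosome 19 members lie under 1.

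The order of months also differed between runs. Month 9 was the highest month in cashmere goats for 43 of 50 members, beside 27.3% of all genes, and in milk goats for all 50, beside 30.3%. In cashmere goats the run gene35 to gene41 took 0.0843%, 0.144%, 0.646% and 0.402% of reads at months 3, 6, 9 and 12, against 0.0121%, 0.0638%, 0.157% and 0.0213% in milk goats. In cashmere goats its sum of TMM-scaled CPM at month 12 was 2.80-fold that at month 6. In the 5 other runs that ratio in cashmere goats lay between 0.727 and 0.996.

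Gene by gene, 6 of the 7 members of gene35 to gene41 were at least 2-fold higher at month 12 than at month 6 in cashmere goats, by 2.89-fold to 6.24-fold, with KAP8 at 6.24-fold. KRTAP11-1, at the edge of the cluster, was at 1.38-fold. Of the 43 tested members outside this run 0 reached 2-fold, and over all genes 2.0% did. From month 6 to month 9 in cashmere goats all 7 members of the run were at least 2-fold higher, as were 2 of 5 in gene43 to gene50 and 5 of 38 on chromosome 19, beside 1.81% of all genes. The median log2 ratio of month 9 over month 6 in cashmere goats was 2.18 in gene35 to gene41 and 0.51 on chromosome 19. In milk goats all runs were higher at month 9 than at month 6 by similar medians, 1.13 in gene35 to gene41 and 1.08 on chromosome 19, and 33 of 50 members were at least 2-fold higher, beside 3.59% of all genes.

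At month 12 milk goats were below month 6 in every run, and 47 of 50 members were at least 2-fold lower, beside 7.49% of all genes. The 3 exceptions, LOC100861181, KAP8 and LOC100861168, all lie in gene35 to gene41, where month 12 stood at 0.770-fold, 0.700-fold and 0.749-fold of month 6 in milk goats. The median log2 ratio of month 12 over month 6 in milk goats was -1.20 in that run, -4.18 in gene43 to gene50 and -3.41 on chromosome 19. The share of gene35 to gene41 in member reads was therefore higher at month 12 than at month 6 in both breeds, although the total over members differed 22.0-fold. Not every run moved alike. The share of gene19569 to gene19582 went from 24.8% at month 6 to 18.0% at month 12 in cashmere goats, against 17.6% to 20.2% in milk goats. The run gene35 to gene41 held 9.01%, 7.86%, 20.0% and 22.0% of member reads in cashmere goats at months 3, 6, 9 and 12, against 12.6%, 7.02%, 10.5% and 25.6% in milk goats. The breeds were farthest apart at month 9, with 20.0% in the cashmere goat library against 10.5% in the milk goat library. This composition does not depend on how libraries are scaled. It comes from 1 library per breed and month and was not tested.

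**Figure D4:**
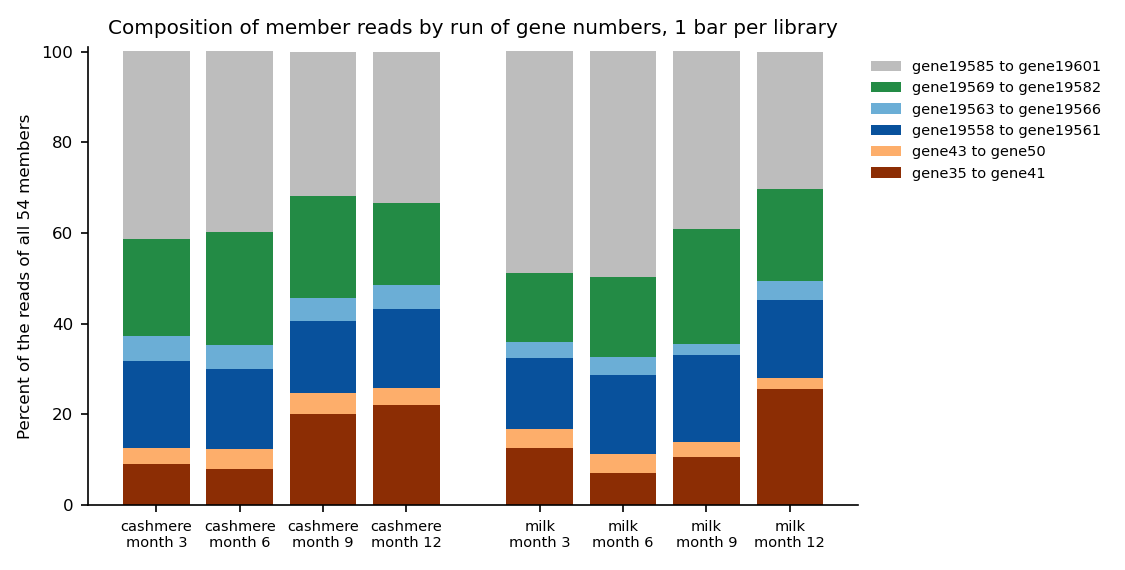
Percent of the reads of all 54 members that fell in each run, 1 bar per library, cashmere goats on the left and milk goats on the right. The darkest segment at the bottom, gene35 to gene41, takes 20.0% and 22.0% at months 9 and 12 of cashmere goats, against 10.5% and 25.6% at the same months of milk goats.

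**Figure D5:**
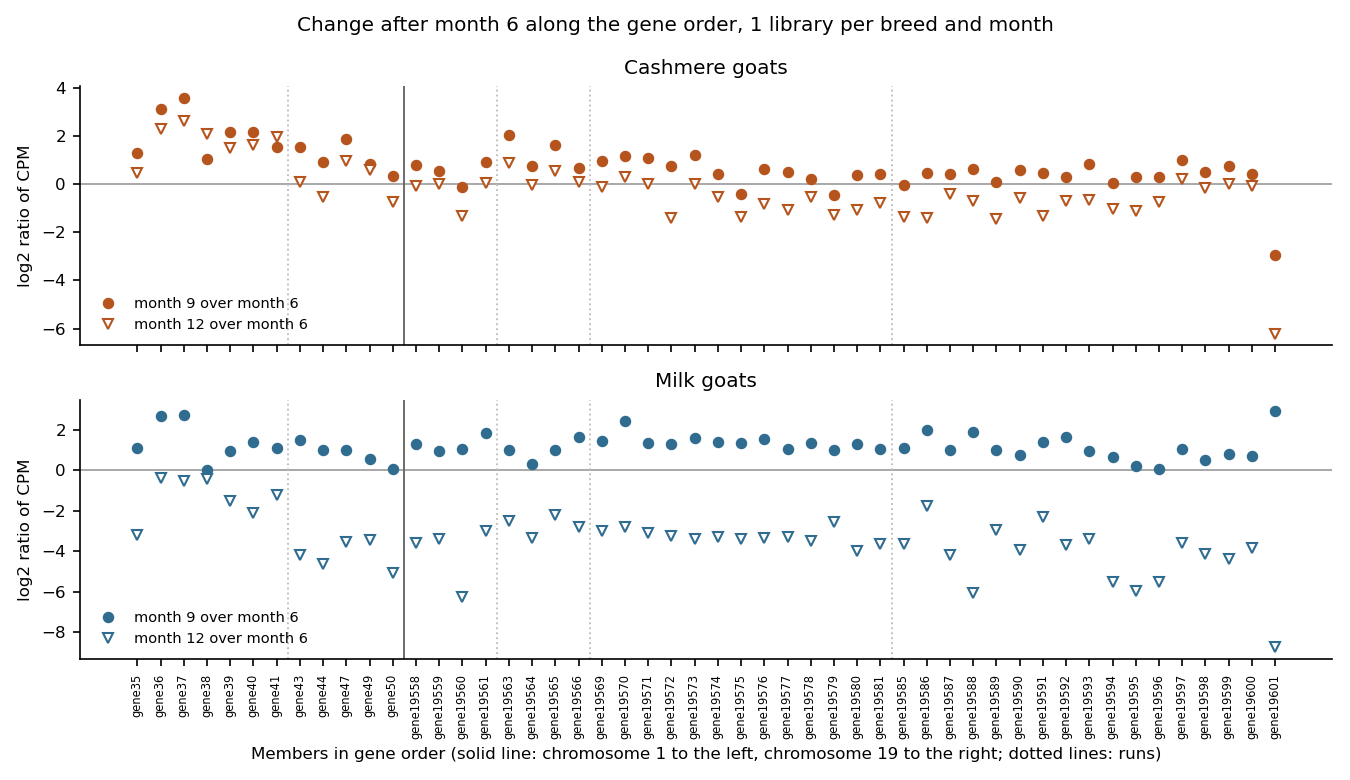
Log2 ratio of month 9 (circles) and month 12 (open triangles) over month 6 for each member that passed the filter, in gene order, cashmere goats above and milk goats below. In cashmere goats both ratios are high in gene35 to gene41, in milk goats the month 12 ratio is nearest to 0 there, and LOC102176161 (gene19601) at the right edge drops at month 12 in both breeds.

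The second count table, made from the same libraries on another gene set, names KAP families by product. None of the member symbols occur in it, so it was used for families only, and it is not independent evidence. It held 20 KAP models of both clusters, 18 of them past the filter, and 11 of the 18 rose in cashmere goats, beside 2.97% of the 14994 genes tested there. The KAP7 model, of the high glycine-tyrosine kind, stood at 15.9, 46.4, 419 and 186 CPM in cashmere goats, against 4.07, 11.2, 59.7 and 8.30 CPM in milk goats, and its log2 fold change was 2.81 ± 0.41 (adjusted p = 0.0180, edgeR). The KAP6 model, of the same kind, stood at 62.1, 192, 969 and 647 CPM in cashmere goats, against 12.4, 106, 307 and 30.0 CPM in milk goats, at log2 2.26 ± 0.53 (adjusted p = 0.0428, edgeR). These families, like KAP8, were higher at month 12 than at month 6 in cashmere goats, 4.01-fold for KAP7 and 3.38-fold for KAP6. In the 12 other families that ratio lay between 0.324 and 1.48, with KAP27 at 1.48 and KAP11 at 1.30. KAP10, a high sulfur family at another place on chromosome 1, was the one at 0.324. Each family is represented by 1 to 5 models, and the ratios were not tested.

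Across the 4 months 0 members and 0% of all genes were called in edgeR, with adjusted p of 0.324 to 0.445 for the members. An unadjusted p under 0.05 was reached by 41 of 50 members, beside 13.4% of all genes, and the DESeq2 likelihood ratio test called 8, beside 3.81% of all genes. Without the month 12 cashmere goat library 33 were called, beside 8.22% of all genes, and without the month 12 milk goat library 9, beside 0.774%. The difference between breeds in their course over the year was tested as breed by season, as the interaction of breed with a yearly wave, in a fit that leaves 2 residual degrees of freedom. In edgeR 0 members and 0% of all genes were called, with the lowest adjusted p of the members at 0.0735. An unadjusted p under 0.05 was reached by 48 members, beside 6.42% of all genes, and the DESeq2 likelihood ratio test called 33, beside 0.561% of all genes. Leaving out any 1 of the 8 libraries gave 18 to 41 calls among the members, beside 0.265% to 3.56% of all genes, so whether the breeds differ in their yearly course is not settled by these libraries.

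Members did not all move together. LOC108638295 was the only tested member with a negative breed log2 fold change, -0.80 ± 0.56 (adjusted p = 0.391, edgeR). It stood at 4.12, 15.5, 11.5 and 6.45 CPM in cashmere goats, against 1.71, 34.5, 68.8 and 5.90 CPM in milk goats. Its value was lower in cashmere goats at months 6 and 9. Its neighbours differed, with log2 ratios of cashmere over milk of 1.16 at month 6 and 0.04 at month 9 for LOC106503203, and 1.29 at month 6 and 0.37 at month 9 for LOC108638287. At month 9 its log2 ratio of cashmere over milk was -2.59 (exact binomial 95% interval -2.90 to -2.28, counting error only).

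LOC102176161, at the end of the chromosome 19 cluster, stood at 1.83, 292, 38.5 and 3.95 CPM in cashmere goats, against 0.814, 37.3, 281 and 0.0881 CPM in milk goats, the last being 1 read. It peaked at month 6 in cashmere goats and at month 9 in milk goats, and the log2 ratio of the breeds was 2.97 at month 6 (interval 2.83 to 3.11) and -2.87 at month 9 (interval -3.03 to -2.70). Its breed log2 fold change was 1.10 ± 1.26 (adjusted p = 0.606, edgeR) and became -0.29 without the month 6 cashmere goat library and -0.20 without the month 6 milk goat library. The hair keratin gene next to it, KRT38, was also highest at month 6 in cashmere goats and at month 9 in milk goats, with 1.60, 159, 26.2 and 4.35 CPM in cashmere goats, against 0.163, 13.9, 182 and 0.264 CPM in milk goats. KRT38 was named for this comparison after its values were seen. The next keratin along, KRT32, was highest at months 6 and 9 in both breeds, with 87.7, 244, 212 and 149 CPM in cashmere goats, against 56.7, 291, 407 and 8.10 CPM in milk goats. Whether reads are shared between LOC102176161 and KRT38 was not tested.

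Other genes of the shaft were tested in the same fit. Of 17 hair shaft keratins listed, 8 were found by symbol and tested, 0 passed in edgeR, all 8 were positive and their median log2 fold change was 1.44. KRT35, an early cortex keratin, was at log2 1.90 ± 0.68 (adjusted p = 0.134, edgeR) and KRT39 at 2.10 ± 0.81 (adjusted p = 0.152, edgeR). Among 15 tested rows of regulators of shaft differentiation 0 passed in edgeR and the median was 0.93. HOXC13, a transcription factor that binds hair keratin promoters in humans, was at log2 1.74 ± 0.45 (adjusted p = 0.0706, edgeR) and FOXN1, another regulator of hair keratin genes, at 1.31 ± 0.54 (adjusted p = 0.177, edgeR). Of 13 tested cross-linking and cuticle genes 1 rose, CDSN, which codes for corneodesmosin, at log2 0.91 ± 0.20 (adjusted p = 0.0496, edgeR), and the median was 0.91. PADI3, which deiminates shaft proteins, was at log2 1.48 ± 0.77 (adjusted p = 0.258, edgeR).

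Set against the reads of those 8 shaft keratins, the breed difference of the members was smaller and differed between months. Member reads were 10.6, 8.87, 16.1 and 11.7 per shaft keratin read in cashmere goats at months 3, 6, 9 and 12, against 3.72, 6.34, 8.18 and 12.3 in milk goats. At month 3 the ratio was 2.84-fold higher in cashmere goats, at month 9 it was 1.97-fold higher, and at month 12 it stood at 0.948-fold. At month 12 the summed reads of the members and of those 8 shaft keratins were thus lower in milk goats to a like extent. By run, the ratio at month 12 lay between 0.814-fold and 1.55-fold. The member sum includes gene19597 to gene19601, whose kind the annotation does not give and which stood at 1.05-fold. At month 3 the summed member reads were lower by more than the keratin reads. That did not hold for every part, since gene19585 to gene19596 stood at 1.08-fold per shaft keratin read at month 3. Single keratins also differed at month 3. KRT39 had 83.1 CPM in cashmere goats against 8.88 CPM in milk goats, and KRT32 had 87.7 CPM against 56.7 CPM. The scaling per shaft keratin read was chosen after the data were seen.

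Marker genes of other skin compartments were measured in the same libraries, and their part in the differences was not tested. Inner root sheath genes (6 of 10 found, none at 0 in all libraries) summed to 22023, 54084, 58544 and 74184 CPM in cashmere goats, against 10079, 63524, 177612 and 2926 CPM in milk goats. This neighbouring layer of the follicle thus also was lowest in milk goats at month 12. TCHH carried most of these sums, with 165648 CPM at month 9 of milk goats and 48857 CPM at month 9 of cashmere goats. At that month TCHHL1 and KRT26 were also lower in cashmere goats, while KRT25, KRT27 and KRT74 were higher. KRT25 stood at 4368 CPM in cashmere goats against 4158 CPM in milk goats, and KRT27 at 3469 CPM against 2909 CPM. Genes of dividing cells (8 of 8 found) summed to 290 to 646 CPM in cashmere goats and 211 to 865 CPM in milk goats, with the lowest and highest milk goat values at months 12 and 9. Suprabasal epidermal genes (6 of 7 found) summed to 14498 to 22230 CPM in cashmere goats and 22392 to 46543 CPM in milk goats. These sums were highest at month 3 in cashmere goats and at month 12 in milk goats. Skeletal muscle genes (4 of 6 found) reached 53.8 CPM in the month 12 milk goat library and at most 3.03 CPM in cashmere goats and 3.31 CPM in the other milk goat libraries. Melanocyte genes (6 of 6 found) summed to 96.0 to 113 CPM in cashmere goats and 102 to 141 CPM in milk goats. MITF made up most of this, with 83.0 to 106 CPM in cashmere goats and 99.4 to 138 CPM in milk goats. Of the 4 tested, 3 had a positive breed log2 fold change and 0 passed in edgeR. DCT was at 1.72 ± 0.56, PMEL at 1.18 ± 0.45 and MLANA at 1.75 ± 0.52, each at 5.54 CPM or less. MITF was at -0.28 ± 0.13. Fibroblast genes (6 of 6 found) summed to 2637 to 33917 CPM in cashmere goats and 2440 to 19860 CPM in milk goats, endothelial genes (5 of 5 found) to 219 to 553 CPM in cashmere goats and 213 to 707 CPM in milk goats, and immune genes (4 of 4 found) to 249 to 385 CPM in cashmere goats and 221 to 517 CPM in milk goats. Without both month 12 libraries 13 members were called between breeds, and the median log2 fold change was 1.74 on chromosome 1 and 1.52 on chromosome 19.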

How the data were processed

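The authors deposited raw read counts per gene, without normalization, and FPKM of the same genes, both per the file headers. A second table of deposited counts uses another gene set. Per the labels' protocols, polyadenylated RNA went into directional paired-end libraries. Per the submitters' processing notes Bowtie2 was used, while the sources used here give no version, no counting tool and no genome build, so no coordinates are printed. No sequences of the members were used here.

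Rows were chosen by gene number and divided into runs of consecutive numbers. The members and gene lists were chosen with earlier results of these data known. Counts were filtered with filterByExpr by breed, scaled by TMM and tested with edgeR 4.0.16 (R 4.3.3) in a model of month and breed with 3 residual degrees of freedom, adjusted by Benjamini-Hochberg over all 14085 genes at 0.05. Standard errors were derived from each log2 fold change and its F value. Sums over members and ratios within a month have no test. A count of 0 allows up to 3 reads, or 0.231 to 0.395 CPM. Intervals and this floor cover counting error only, because PCR copies were not separated by molecular identifiers.

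Members given in full were the 4 named ones, in each cluster the 4 with the highest mean FPKM, up to 6 called ones, and the 2 highest and 2 lowest breed fold changes. Alternatives were RLE factors, library totals, TMM without hair genes, 2 other filters, DESeq2 1.42.0, limma 3.58.1 on log2(FPKM + 1) and log2(FPKM + 0.1), breed alone, a second form of the season term, leaving out each library, and 3 chosen after the data were seen. The library of each breed and month is 1 sample, and month pairs the breeds in the model.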

Additional observations from a re-analysis of the deposited data

Results flagged for a closer look

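In a group of 4 libraries, 1 library was far from the other 3 for 5 level profiles, where chance flags about 1 in 20 groups. In milk goats the month 9 library was far above the rest for KAP8 (129 CPM), LOC100861181 (819 CPM), LOC108638300 (1629 CPM) and LOC102176161 (281 CPM). In cashmere goats the month 6 library was far above the rest for LOC102176161 (292 CPM). These libraries are different months, so the gap is also a difference between months. The 5 profiles therefore cannot be set against that chance rate.

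Among the 20 members given in full, the breeds moved in opposite directions between neighbouring months for 3. Each change rests on 1 library per breed and month, and the differences were not tested. From month 9 to month 12 LOC100861168 changed by 1.06 on the log2 scale in cashmere goats and by -0.45 in milk goats. From month 6 to month 9 LOC102176161 changed by -2.93 in cashmere goats and by 2.91 in milk goats, and LOC108638295 by -0.44 in cashmere goats and by 0.99 in milk goats. Members outside these 20 also moved in opposite directions, such as LOC106503216 at -0.40 in cashmere goats and 1.33 in milk goats over the same months.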

How the results depend on the processing

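The number of members called between breeds (8) was 8 with RLE factors (4.81% of all genes called in either direction) and with TMM computed without hair genes (4.79%). It was 7 of 44 at the stricter filter (6.55%), 35 with the DESeq2 Wald test (12.2%), 23 of 54 with no filter (4.72%) and 26 with library totals (4.39%). With limma it was 46 on log2(FPKM + 1) (9.76%) and 43 on log2(FPKM + 0.1) (8.24%). It was 13 without both month 12 libraries (5.97%) and 0 with breed alone (2.46%), beside 4.79% in the reported fit. The counts of 23 to 46 each held all 8, and 6 of the 8 were among the 13. Leaving out 1 library at a time gave 0 to 14 (0% to 6.05% of all genes). In these fits fewer residual degrees of freedom remain. Calls across months (0) became 8 in the DESeq2 likelihood ratio test (3.81% of all genes) and 0 to 33 when 1 library was left out (0% to 8.22%), and 0 with months 9 and 12 set against months 3 and 6. Calls for breed by season (0) became 36 with no filter (0.627% of all genes), 33 in the DESeq2 likelihood ratio test (0.561%) and 18 to 41 when 1 library was left out (0.265% to 3.56%), and 0 with months 3 and 12 set against months 6 and 9. The cause was not tested. Per shaft keratin read, the mean log2 ratio of the breeds on chromosome 1 was 0.83, against 2.57 per total read, and at month 12 the ratio was -0.19 on chromosome 1 and -0.03 on chromosome 19. The breed log2 fold change of LOC102176161 was -0.29 to 2.85 when 1 library was left out. Of 359 values of the 20 members given in full, 249 kept direction and side of the threshold, 62 kept direction only and lost the call, 46 gained it and 2 reversed. The alternative on the second table gave no value, since no member symbol occurs there. The 4 members that did not pass the filter had 0 to 24 reads per library.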
